A study of Saccharomyces cerevisiae with 12 samples.

Results

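The effect of deleting SET1 in budding yeast that already carry the prp43-1 helicase allele was measured in 4 of the 12 RNA sequencing libraries of the series. The 4 libraries were chosen by genotype alone: set1Δ prp43-1 and prp43-1 cells, sampled once at 25 °C and once at 37 °C. Both strains were haploid BY4741 of mating type a and, per the labels, shared the alleles his3Δ1, leu2Δ0, met15Δ0, ura3Δ0 and prp43-1, so that set1Δ was the only labelled difference. Each genotype is 1 strain, and any other difference between the strains cannot be told apart from the deletion. The growth protocol names 25 °C in YPD for every culture, and the time spent at 37 °C is not given in the sources used here. RNA was depleted of ribosomal RNA before library construction. The libraries of the intact helicase, wild type and set1Δ, were used for the interaction and for values set side by side. They also entered the alternative fits with all 12 libraries. Those fits took in the set2Δ and set2Δ prp43-1 libraries too, which are not described here.

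Set1 is the catalytic subunit of COMPASS, the complex that methylates histone H3 at lysine 4 near the start of transcribed genes. Prp43 is a DEAH-box RNA helicase that takes apart the spliceosome, both after a normal reaction, when it frees the excised intron lariat, and when a stalled or faulty intermediate is discarded. It also acts in the maturation of ribosomal RNA. Yeast introns usually begin with GTATGT, hold the branch site TACTAAC and end with AG, and a helicase that discards poor substrates is known to limit the use of unusual splice sites.

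Each row of the deposited table is a splice form outside the annotation, given by its host gene and the first and last base of the stretch that the reads skip, here called the gap. The table held 6195 forms, and 3581 of them, in 1090 hosts, had at least 1 read in the 4 libraries, with 1143859 reads in all. The counts cover reads on listed forms only. Column totals were 217771 in prp43-1 and 353488 in set1Δ prp43-1 at 25 °C, and 282044 and 290556 at 37 °C. SCR1, which encodes the RNA component of the signal recognition particle, held between 75.4% and 86.7% of each column, which left 37392 to 86845 reads for all other hosts. The prp43-1 library at 37 °C stood apart, with the highest SCR1 share, the fewest reads outside SCR1 and the most forms seen, 2204 against 1478 to 2001 in the others. Neither label could be checked on its gene: SET1 had 0 reads in 3 libraries and 2 in prp43-1 at 37 °C, and PRP43 had 1 read in all. HIS3, which the labels give as his3Δ1, had 19 and 40 reads on its listed forms at 25 °C and 38 and 28 at 37 °C, in the order prp43-1 and set1Δ prp43-1, and 0 in both wild-type libraries, whose labels name the same allele. The mating type was checked with marker genes, and α-specific hosts had 0 reads in all 4 libraries while the a-specific STE2, the α-factor receptor, had 1 or 2 reads in each.

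Of the 378 forms with enough reads for the test, 11 (2.91%) passed an adjusted p of 0.05, 5 (1.32%) higher and 6 (1.59%) lower in set1Δ prp43-1. The test was edgeR's quasi-likelihood test with temperature as a covariate, libraries scaled by TMM factors, which align the bulk of the forms, and Benjamini-Hochberg adjustment over all 378 forms. Forms past it are called forms here, and scaled ratios and CPM, counts relative to the scaled column total, use the same factors. The 5 that rose were 4 forms of SCR1 and 1 of CCW12, a cell wall mannoprotein. The 6 that fell were 2 forms of SNR30 and 1 each of SNR17A, SCR1, RPP2B and RPL3, whose products are small nucleolar RNAs, the signal recognition particle RNA and ribosomal proteins. An unadjusted p under 0.05 was found for 38 forms, or 10.1%. The 1 residual degree of freedom is the difference of the deletion's change between temperatures, as no group has a replicate. The spread came from a trend over all forms, not from each form. A form that changed mainly at 1 temperature could therefore pass. With DESeq2, with all 12 libraries, without SCR1 forms or without the temperature term, 0 forms passed. Fits that left out 1 library had to drop the temperature term too and gave 6 forms without prp43-1 at 25 °C and 0 without each of the other 3, while column totals in place of TMM factors gave 5 higher and 2 lower.

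The change was larger at 37 °C than at 25 °C in all 11 called forms. At 37 °C the exact 95% counting interval of the ratio excluded equality for 11 of 11, and at 25 °C for 7 of 11. A ratio of at least 2-fold was reached by 10 forms at 37 °C and by 2 at 25 °C. The 11 forms were picked by the test on these same reads, so these counts describe them and are not a further check. Over the 378 tested forms, the log2 ratios at 37 °C were spread with an SD of 1.08, against 0.59 at 25 °C. The ratios at both temperatures had the same sign for 213 forms, or 56.3%, and their Pearson correlation across forms was 0.14 (Spearman 0.17). These are descriptions across forms, which share libraries and are not independent replicates. In these bulk libraries, fewer cells that carry a form and less of it per cell cannot be told apart, and the table gives no total RNA level of a host.

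**Figure D1:**
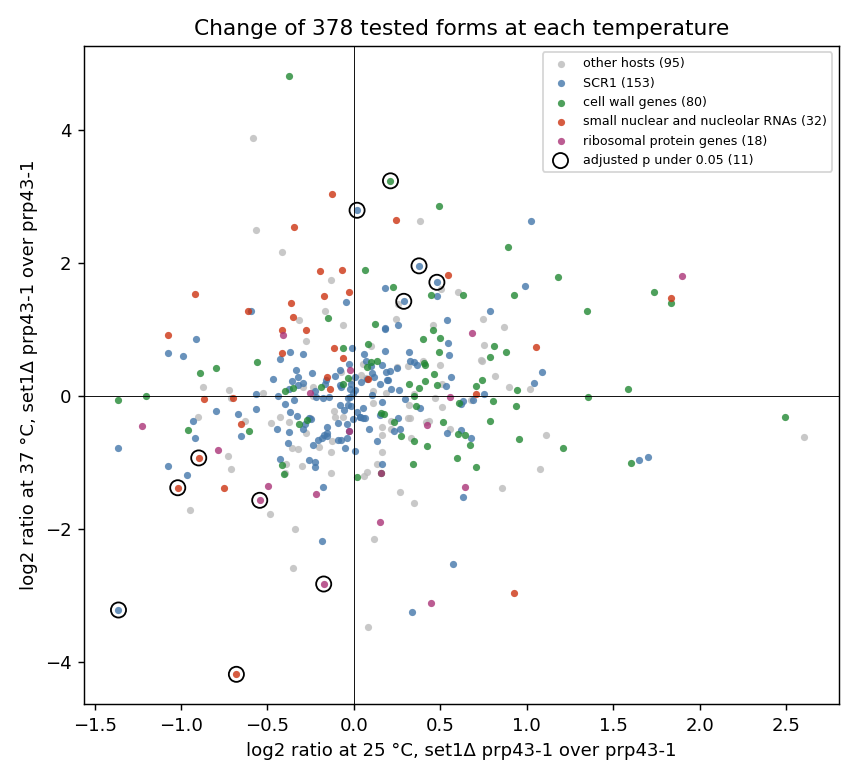
Each point is 1 of the 378 tested forms, with the log2 ratio of set1Δ prp43-1 over prp43-1 at 25 °C on the x axis and at 37 °C on the y axis; colours give the host group and black rings the 11 forms past the adjusted p of 0.05. The points are spread more along the y axis (SD 1.08) than along the x axis (SD 0.59), and the ringed forms lie away from 0 on the y axis.

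SCR1 gave 5 of the 11 called forms and 153 of the 378 forms tested. The printed stretches show the skipped bases in capitals with 15 bases of the gene on either side, from the RefSeq R64 genome, on the strand of SCR1 and 5′ to 3′. They are shown because, among the 4 called SCR1 forms that rose, they carry the one with the most reads and the one with the largest fitted fold.
SCR1 chrV:442325-442389: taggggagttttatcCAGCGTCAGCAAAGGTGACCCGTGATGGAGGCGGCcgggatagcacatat
SCR1 chrV:442182-442229: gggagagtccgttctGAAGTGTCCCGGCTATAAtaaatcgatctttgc
Neither gap begins with GT or ends with AG.

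The 35-nt gap of the first stretch, bases 354 to 388 of SCR1, was the most read of them. It had 4779 reads in prp43-1 and 11610 in set1Δ prp43-1 at 25 °C, and 1856 and 7539 at 37 °C. As a share of SCR1 reads it was 2.83% and 4.35% at 25 °C and 0.76% and 3.19% at 37 °C. The prp43-1 library at 37 °C was the low one, and the other 3 lay within 2 percentage points of each other. The scaled ratio was 1.40-fold at 25 °C and 3.27-fold at 37 °C, with a fitted log2 change of 1.09 (SE 0.26, adjusted p = 0.00386, edgeR). A 181-nt gap that ends at the same base, 388, rose as well, with 3754 and 7986 reads at 25 °C and 1893 and 6305 at 37 °C (log2 0.85, SE 0.26, adjusted p = 0.0372, edgeR).

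The 18-nt gap of the second stretch, bases 211 to 228, differed between the strains beyond counting error at 37 °C. It had 154 reads in prp43-1 and 272 in set1Δ prp43-1 at 25 °C, a scaled ratio of 1.01, and 20 and 176 at 37 °C, a ratio of 6.93 (log2 1.27, SE 0.37, adjusted p = 0.0272, edgeR). The 25 °C libraries therefore did not differ beyond counting error, and the call came from 37 °C. A 140-nt gap, bases 202 to 341, is the called form with GT and AG at its ends. It had 698 and 1579 reads at 25 °C and 223 and 1077 at 37 °C, ratios of 1.30 and 3.88 (log2 1.16, SE 0.27, adjusted p = 0.00316, edgeR). A 292-nt gap, bases 155 to 446, fell: its counts were 15 and 10 at 25 °C and 86 and 11 at 37 °C (log2 -2.43, SE 0.57, adjusted p = 0.00316, edgeR). Here the prp43-1 library at 37 °C was the high one.

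The rest of SCR1 did not move one way. Of its 175 forms with at least 20 reads, 47 were higher and 60 lower at both temperatures, beside 28.4% and 25.8% of all 531. The median log2 ratio of the SCR1 forms was -0.03 at 25 °C and -0.03 at 37 °C. That balance depends on the scaling: on column totals alone it was 70 higher and 35 lower, and with factors from forms outside SCR1 34 higher and 72 lower. Of 153 SCR1 forms tested, 4 rose and 1 fell, beside 1.32% and 1.59% of all tested forms. SCR1 as a host took 77.5% and 75.4% of the columns at 25 °C and 86.7% and 81.3% at 37 °C.

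**Figure D2:**
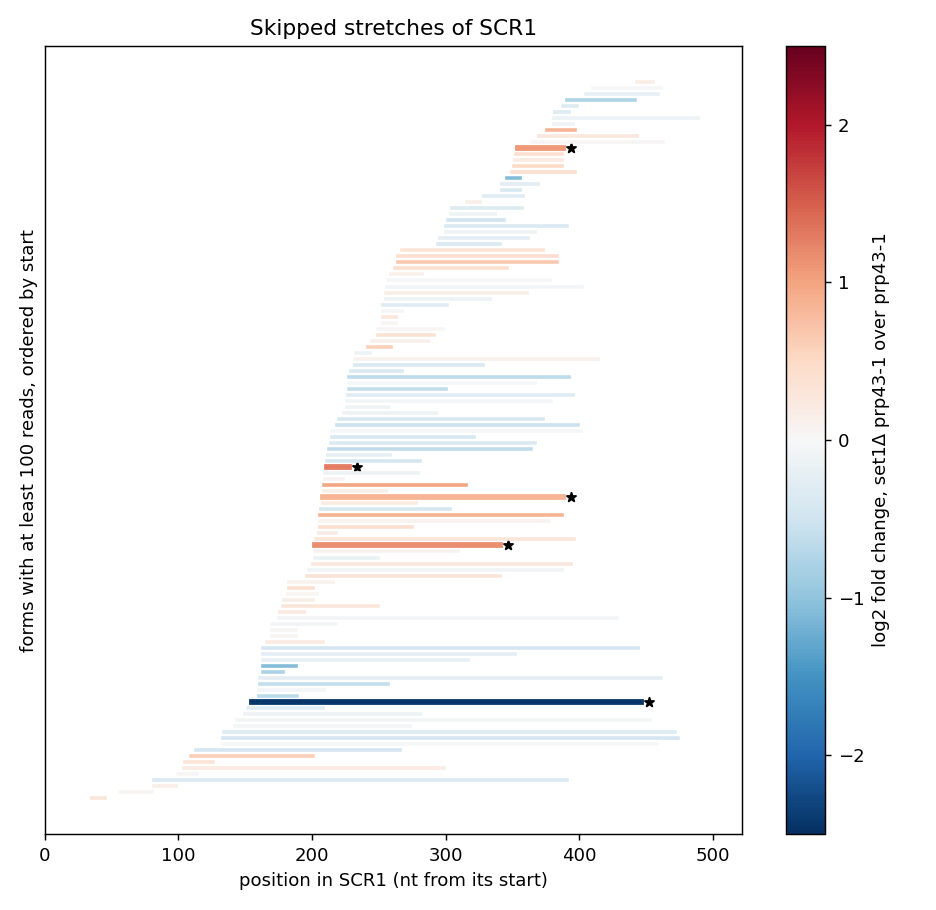
Each line is the skipped stretch of 1 of 120 SCR1 forms with at least 100 reads, drawn at its position in the gene (x axis, nt from the start) and ordered by start on the y axis; the colour is the fitted log2 change in set1Δ prp43-1 and stars mark the 5 called forms. Red and blue lines lie side by side along the gene, and 2 of the starred forms end at base 388.

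Small nucleolar RNAs gave 3 of the called forms, and all 3 fell. SNR30 encodes the H/ACA snoRNA required for 18S ribosomal RNA processing, and SNR17A encodes U3, which is needed for the early cleavages of the ribosomal RNA precursor. Their gaps are printed in capitals with 15 bases on either side, because both snoRNAs act in the process in which Prp43 also works; sequence and strand are as above.
SNR30 chrXII:199304-199379: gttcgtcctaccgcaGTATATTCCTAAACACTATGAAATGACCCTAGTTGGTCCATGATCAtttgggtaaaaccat
SNR30 chrXII:199086-199146: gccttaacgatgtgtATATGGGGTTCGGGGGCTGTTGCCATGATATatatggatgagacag
SNR17A chrXV:780473-780541: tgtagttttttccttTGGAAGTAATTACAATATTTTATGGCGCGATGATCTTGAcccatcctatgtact
In the second SNR30 stretch, a repeat of 7 bases spans the gap's edges, in part before and in part after the listed positions, so the exact edge of that gap cannot be placed from the reads.

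The 46-nt SNR30 gap, bases 536 to 581 of a 606-base gene, held most of the reads of its host. It had 856 reads in prp43-1 and 800 in set1Δ prp43-1 at 25 °C, and 1193 and 775 at 37 °C. The scaled ratio was nearly the same at both temperatures, 0.54 and 0.52, with a fitted log2 change of -0.92 (SE 0.25, adjusted p = 0.0225, edgeR). Its share of SNR30 reads was 66.9% and 62.7% at 25 °C and 73.3% and 69.4% at 37 °C, so it makes up most of the sum of its host. The 31-nt SNR30 gap, bases 318 to 348, had 106 and 91 reads at 25 °C and 156 and 74 at 37 °C (log2 -1.20, SE 0.36, adjusted p = 0.0355, edgeR).

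The 39-nt gap of U3, bases 382 to 420, fell at 37 °C. Its counts were 11 and 12 at 25 °C, where the counting interval of the ratio includes equality, and 51 and 3 at 37 °C (log2 -2.35, SE 0.68, adjusted p = 0.0272, edgeR). A neighbouring 57-nt U3 gap, which starts at base 420, went the other way, with 2 and 15 reads at 25 °C and 4 and 15 at 37 °C (log2 1.77, SE 0.89, adjusted p = 0.465, edgeR). Over all small nuclear and nucleolar RNAs, 8 of 42 forms with at least 20 reads were higher at both temperatures and 8 lower, beside 28.4% and 25.8% of all 531 such forms. Their median log2 ratio was -0.31 at 25 °C and 0.68 at 37 °C, and on column totals -0.21 and 0.95. Of the 32 tested, 3 fell and 0 rose, beside 1.59% and 1.32% of all tested forms. All forms of SNR17A together had 17395 and 27997 reads at 25 °C and 9245 and 19083 at 37 °C, log2 ratios of -0.11 and 0.73.

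The remaining 3 called forms lie in coding genes, each within the coding exon and a multiple of 3 bases long. RPP2B encodes a stalk protein of the large ribosomal subunit, RPL3 a core protein of that subunit, and CCW12 a mannoprotein of the cell wall. The gaps are in capitals on the coding strand, with 18 bases (15 for CCW12) on either side, and are shown because none of them has GT-AG ends.
RPP2B chrIV:1239737-1239784: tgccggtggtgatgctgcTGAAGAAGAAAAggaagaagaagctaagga
RPL3 chrXV:445197-445244: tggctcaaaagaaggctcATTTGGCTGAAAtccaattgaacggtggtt
CCW12 chrXII:370051-370107: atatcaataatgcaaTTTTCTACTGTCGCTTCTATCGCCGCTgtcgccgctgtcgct
The RPP2B gap sits in a stretch rich in glutamate codons.

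The 12-nt RPP2B gap had 134 reads in prp43-1 and 207 in set1Δ prp43-1 at 25 °C, and 335 and 58 at 37 °C. The scaled ratio was 0.89 at 25 °C, where the counting interval includes equality, and 0.14 at 37 °C (log2 -1.48, SE 0.34, adjusted p = 0.00316, edgeR). The 12-nt RPL3 gap was lower at both temperatures, with 361 and 431 reads at 25 °C, a ratio of 0.69, and 652 and 272 at 37 °C, a ratio of 0.34 (log2 -1.06, SE 0.28, adjusted p = 0.0108, edgeR). The 27-nt CCW12 gap, bases 7 to 33 of the coding sequence, had 89 and 180 reads at 25 °C and 8 and 99 at 37 °C (log2 1.47, SE 0.43, adjusted p = 0.0272, edgeR). In RPP2B the set1Δ prp43-1 library at 37 °C was the lowest of the 4 and the prp43-1 library at 37 °C the highest. In CCW12 the prp43-1 library at 37 °C lay far under the other 3. The fitted log2 change was 0.91 without the temperature term and -0.0023 without both that term and that library, and at 25 °C alone the scaled ratio was 1.16.

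**Figure D3:**
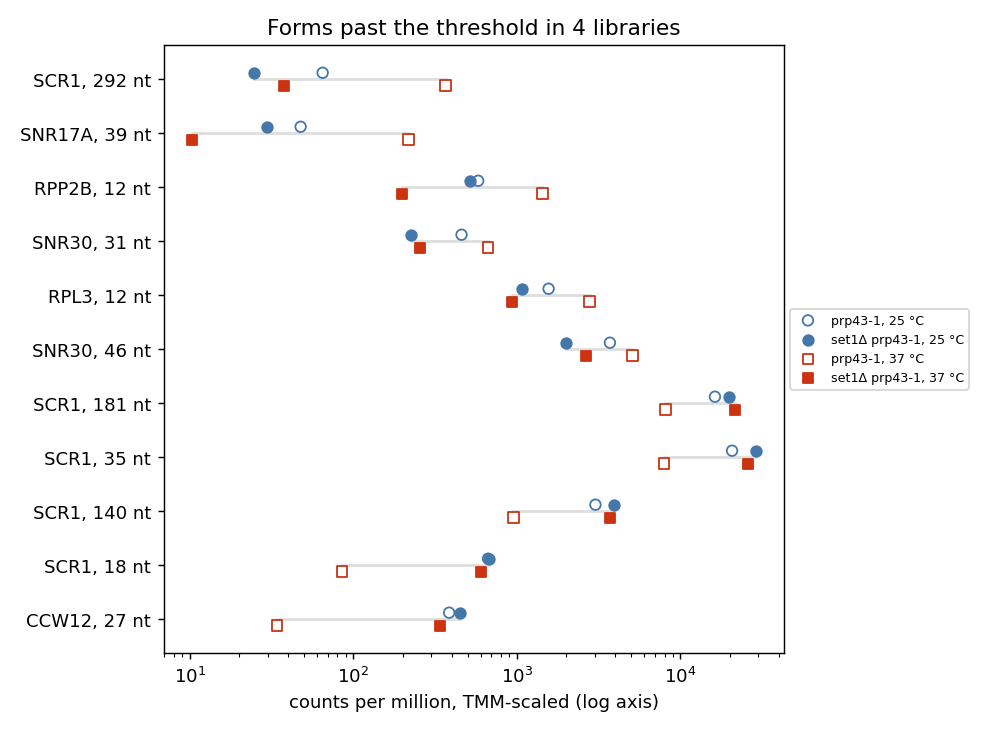
Scaled CPM (log x axis) of the 11 forms past the threshold in each of the 4 libraries, with open symbols for prp43-1, filled symbols for set1Δ prp43-1, circles for 25 °C and squares for 37 °C. In every row the open square, prp43-1 at 37 °C, is at 1 end of the 4 values.

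Forms that look like spliced introns were read apart from the test, since only 1 called form has GT and AG at its ends and 0 have a deposited p-value under 0.05. Of 52 forms with GT-AG ends or such a p-value and at least 10 reads, 17 (32.7%) were higher and 12 (23.1%) lower in set1Δ prp43-1 at both temperatures, with forms that had 0 reads in both libraries of a temperature counted in neither direction. Of the 44 outside SCR1, 14 (31.8%) were higher and 9 (20.5%) lower. Over all 531 forms with at least 20 reads, the shares were 28.4% and 25.8%. The 6 of the 52 with the largest ratios on the higher side were in YGR259C, RPS22B, RPS0A, RPL27A, TDH3 and ARF2. Of these hosts, RPS22B, RPS0A and RPL27A encode ribosomal proteins. Reads were few in the TDH3 gap, with 1 and 8 at 25 °C and 0 and 1 at 37 °C. The RPS0A gap had 1 and 4 and then 2 and 5, and the ARF2 gap 1 and 7 and then 3 and 7. The 40-nt gap listed under YGR259C had 0 reads in both prp43-1 libraries and 6 in each set1Δ prp43-1 library. On the lower side they were in MET30, an F-box protein, RPS27B, RPL7A, CCW12, RPS10B and LSB3. The 96-nt RPL7A gap, which begins at an annotated 5′ splice site, had 19 and 14 reads at 25 °C and 10 and 9 at 37 °C; RPS27B and RPL7A encode ribosomal proteins. The most-read forms of APE2, an aminopeptidase, of ECM33, a cell surface protein, and of URA2, the first enzyme of pyrimidine synthesis, were also higher at both temperatures. The sequences show the 3′ part of each gap, with capitals for TACTAAC and the last 2 bases; for RPS22B the whole gap is printed and its first 6 bases are capitals too.
RPS22B chrXII:856989-857057: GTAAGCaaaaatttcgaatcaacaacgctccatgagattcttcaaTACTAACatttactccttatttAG
APE2 chrXI:155587-155636: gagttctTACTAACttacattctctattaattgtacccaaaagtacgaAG
ECM33 chrII:393458-393507: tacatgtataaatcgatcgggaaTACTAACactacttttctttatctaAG
RPS10B chrXIII:732795-732844: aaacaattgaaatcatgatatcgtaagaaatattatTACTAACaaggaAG
URA2 chrX:172413-172442: acgacgatagaaatccataactaattgcAG

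The 69-nt RPS22B form ranked first among the higher forms with at least 20 reads. Its end is the annotated end of the RPS22B intron (bases 856575 to 857057 of chromosome XII), but it begins downstream of the snoRNA SNR44, which that intron carries. It had 15 reads in prp43-1 and 100 in set1Δ prp43-1 at 25 °C, and 1 and 6 at 37 °C. The scaled ratios were 3.72 and 3.49, and the fitted log2 change of 1.97 (SE 0.68) had an unadjusted p of 0.00386 and an adjusted p of 0.0912 in edgeR. The 37 °C value rests on 7 reads. For comparison, the same form had 138 and 63 reads in wild type and 154 and 65 in set1Δ with intact Prp43, at 25 °C and 37 °C, more than in prp43-1 in each case.

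APE2 and ECM33 forms begin at the annotated 5′ splice site and end short of the annotated 3′ site. The APE2 gap of 365 nt ends 18 nt before it and had 68 and 155 reads at 25 °C and 4 and 34 at 37 °C (log2 1.19, SE 0.47, adjusted p = 0.243, edgeR). The ECM33 gap of 327 nt ends 3 nt before it and had 158 and 364 reads at 25 °C and 63 and 142 at 37 °C, ratios of 1.32 and 1.81 (log2 0.62, SE 0.33, adjusted p = 0.492, edgeR). The URA2 gap of 340 nt lies upstream of the coding sequence and had 20 and 59 reads at 25 °C and 12 and 22 at 37 °C. The RPL27A gap of 265 nt, which begins at the annotated 5′ site, had 19 and 54 at 25 °C and 6 and 15 at 37 °C. All of these were higher in set1Δ prp43-1 at both temperatures, and none passed the adjusted p over all forms.

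RPS10A and RPS10B, a pair of duplicated genes for the same ribosomal protein, were lower at both temperatures. The RPS10B gap of 379 nt ends 31 nt before the annotated 3′ site, with 8 bases after the last A of TACTAAC. It had 68 and 84 reads at 25 °C and 71 and 34 at 37 °C (log2 -0.92, SE 0.42, adjusted p = 0.414, edgeR). The RPS10A gap of 390 nt begins 1 base inside the annotated intron and ends 46 nt before the annotated 3′ site. As listed it ends in GA and not in AG. It had 114 and 115 reads at 25 °C and 58 and 41 at 37 °C (log2 -0.80, SE 0.39, adjusted p = 0.453, edgeR). A 39-nt gap within the coding exon of MET30 had 13 and 6 reads at 25 °C and 9 and 2 at 37 °C. A 95-nt LSB3 form, 1 base longer than the annotated intron, had 7 and 9 reads at 25 °C and 22 and 5 at 37 °C; LSB3 acts at actin patches. HAC1, the transcription factor gene of the unfolded protein response, had a 68-nt gap with 351 and 369 reads at 25 °C and 288 and 190 at 37 °C (log2 -0.82, SE 0.29, adjusted p = 0.0990, edgeR).

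Fitted alone, 5 of 21 forms with GT-AG ends or a deposited p-value under 0.05 passed, or 23.8%, beside 2.91% of all 378. These were RPS22B (log2 2.55, SE 0.53, adjusted p = 0.00187), MET30 (-1.66, SE 0.36, 0.0259), a 45-nt CCW12 form (1.26, SE 0.39, 0.0259), RPL27A (1.25, SE 0.43, 0.0363) and APE2 (1.74, SE 0.60, 0.0363), all in edgeR. The adjustment and the scaling run over these 21 forms only, 13 of them outside SCR1, so the values are an alternative to those over all 378 forms.

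**Figure D4:**
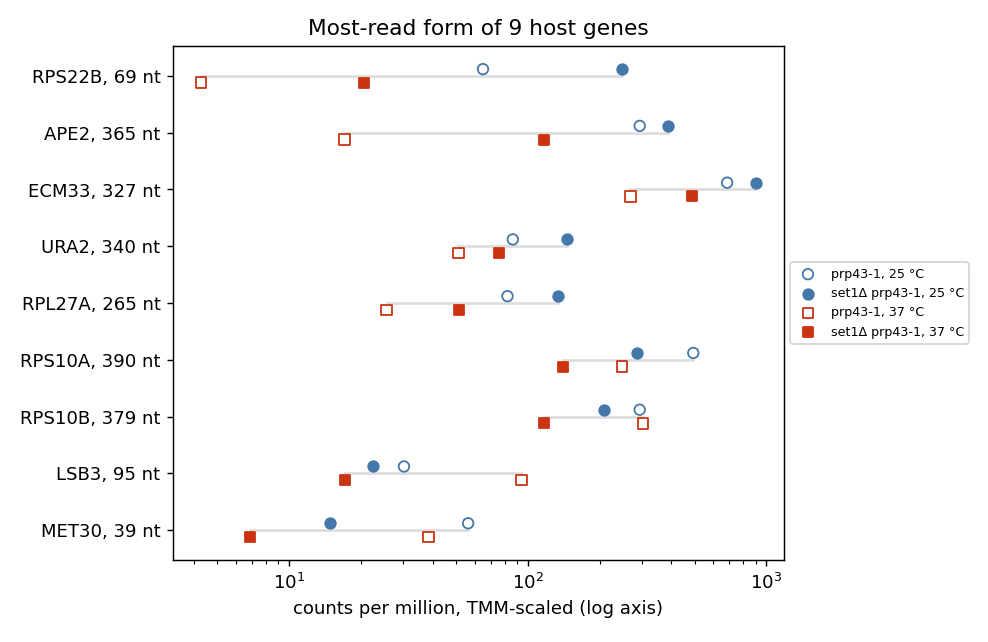
Scaled CPM (log x axis) of the most-read form of 9 hosts in each of the 4 libraries, with symbols as for the called forms. The filled symbols lie above the open symbols of the same temperature in the 5 hosts from RPS22B to RPL27A and under them in the 4 hosts from RPS10A to MET30.

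Low-p forms, those with a deposited p-value under 0.05, took a small share of the reads on coding hosts. The share was 2.34% (Wilson 95% interval 2.18 to 2.52) in prp43-1 and 2.43% (2.31 to 2.56) in set1Δ prp43-1 at 25 °C, and 1.58% (1.44 to 1.74) and 1.73% (1.60 to 1.88) at 37 °C. The intervals overlap at both temperatures, and the mean log2 ratio was 0.09 (SD 0.06, n = 2 pairs). Forms with GT-AG ends took 2.61% and 2.65% at 25 °C and 1.87% and 1.92% at 37 °C, a mean log2 ratio of 0.03 (SD 0.01, n = 2 pairs). At an equal 414 low-p reads, 96.1 distinct low-p forms were expected in prp43-1 and 90.5 in set1Δ prp43-1 at 25 °C, and 116 and 120 at 37 °C, a mean log2 ratio of -0.02 (SD 0.09, n = 2 pairs). No test could reach significance with 2 pairs, since the smallest exact sign-flip p is 0.5. All intervals cover counting error only: PCR copies of 1 molecule could not be told from separate molecules.

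Host lists gave the wider picture, over forms with at least 20 reads in the 4 libraries. Of all 531 such forms, 151 (28.4%) were higher and 137 (25.8%) lower at both temperatures, and 11 (2.07%) and 9 (1.69%) by at least 2-fold. Among 130 forms of cell wall genes, 50 were higher and 16 lower, with a median log2 ratio of 0.34 at 25 °C and 0.12 at 37 °C beside 0.05 and 0.01 over all forms. The order held on column totals, with 62 higher and 12 lower, and with factors from outside SCR1, with 42 higher and 22 lower. Of 80 cell wall forms tested, 1 rose, the CCW12 form, and 0 fell, beside 1.32% and 1.59% of all 378 tested forms.

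The cell wall forms come from few hosts and overlap within them. SED1, a major wall protein, gave 62 of the 130, of which 21 were higher and 7 lower. CCW12 gave 23, of which 11 were higher and 1 lower. CWP2, a mannoprotein of the wall, gave 8, of which 7 were higher and 0 lower, and its reads summed to 2346 in prp43-1 and 5349 in set1Δ prp43-1 at 25 °C and to 2367 and 4185 at 37 °C. Its 24-nt gap had 8 and 33 reads at 25 °C and 5 and 23 at 37 °C (log2 1.52, SE 0.69, adjusted p = 0.414, edgeR). A 132-nt SED1 gap had 2 and 14 reads at 25 °C and 4 and 16 at 37 °C. HSP150, another wall protein, was even, with 6 higher and 6 lower of 26, although its 44-nt gap had 1 and 7 reads at 25 °C and 1 and 11 at 37 °C. The median log2 ratio at 37 °C was 1.27 in CCW12 and 0.80 in CWP2, but 0.02 in SED1 and -0.34 in HSP150. At 25 °C these medians were 0.08, 0.45, 0.35 and 0.39. Summed per host, GAS1, SCW10 and UTH1 of the list were lower at both temperatures, while ECM33, PIR1 and SIM1, among others, were higher.

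Genes of the translation machinery had more lower than higher forms in each of 3 lists, with shares of lower forms that lie near the 25.8% of all forms in the ribosomal protein lists. Of 15 forms in ribosomal protein genes without an intron, 0 were higher and 5 lower at both temperatures, with median log2 ratios of -0.17 at 25 °C and -0.84 at 37 °C. Of 11 tested, 2 fell, RPP2B and RPL3, and 0 rose, beside 1.59% and 1.32% of all 378 tested forms. On column totals alone 2 of the 15 were higher and 4 lower. Of 13 forms in ribosomal protein genes with an intron, 3 were higher and 4 lower, with medians of 0.42 at 25 °C and -0.46 at 37 °C. Of 7 tested, 0 passed, beside 2.91% of all 378 tested forms. Translation factors had 18 forms, of which 2 were higher and 9 lower, with medians of -0.10 and -0.58. Of 14 tested, 0 passed, beside the same 2.91%. On column totals the median at 25 °C was 0.01. Of the 9 lower ones, 8 were in YEF3, elongation factor 3, whose reads went from 314 to 627 at 25 °C and from 293 to 172 at 37 °C. A 98-nt gap of TEF1, elongation factor 1α, had 35 and 48 reads at 25 °C and 75 and 15 at 37 °C (log2 -1.43, SE 0.49, adjusted p = 0.0879, edgeR).

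Glycolytic and fermentation genes, which include TDH3, the most read coding host, were close to the background. Of their 82 forms, 23 were higher and 16 lower, with medians of 0.14 and 0.00. Of 52 tested, 0 passed, beside 2.91% of all 378 tested forms. Heat shock genes had 5 forms, 2 higher and 2 lower. HAC1 had 4 forms, of which 3 were lower at both temperatures and 0 higher. Subunits of COMPASS had 0 forms with 20 reads, and the partner proteins of Prp43 had 0 forms listed.

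Named by the ratio at both temperatures rather than by the test, the forms with at least 20 reads that were lowest included a 106-nt SCR1 gap with 6 and 0 reads at 25 °C and 20 and 1 at 37 °C. A gap of STM1, a ribosome-associated protein, had 15 and 7 reads at 25 °C and 5 and 0 at 37 °C. Gaps of ENO2 and CDC19, glycolytic enzymes, of GAS1, a wall glucanosyltransferase, and of YEF3 followed, with 24 to 57 reads each. The GAS1 gap has a repeat of 12 bases at its ends. Among the highest, a gap of SIM1, a wall-associated protein of the SUN family, had 5 and 19 reads at 25 °C and 0 and 3 at 37 °C. The 151 higher forms had a median gap of 43 nt and the 137 lower ones 69 nt, beside 55 nt over all 531. Gaps in coding hosts had a length divisible by 3 in 71 of 95 higher, 53 of 69 lower and 232 of 312 of all forms. These counts include gaps outside coding exons, so they do not show that a reading frame was kept.

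Summed per host, 0 of 97 hosts, 0.0%, passed the adjusted p, and 6 (6.19%) had an unadjusted p under 0.05 in edgeR; DESeq2 gave 0 and 3. Of 74 hosts with at least 50 reads, 20 (27.0%) were higher and 23 (31.1%) lower at both temperatures. RPS22B was the 1 host (1.35%) at least 2-fold higher at both, and 0 hosts (0.0%) were 2-fold lower at both. RPS22B had 16 and 104 reads at 25 °C and 1 and 6 at 37 °C (log2 1.92, SE 0.48, adjusted p = 0.582, edgeR). SNR30 was lower by a like factor at both temperatures, with 1280 and 1275 reads at 25 °C and 1628 and 1116 at 37 °C, scaled ratios of 0.55 and 0.56 (log2 -0.85, SE 0.23, adjusted p = 0.582, edgeR).

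Other hosts on the higher side were PRM7, a pheromone-regulated membrane protein, with 5 and 33 reads at 25 °C and 37 and 72 at 37 °C, and the wall proteins NCW1, with 25 and 78 and then 37 and 57, and PIR1, with 107 and 268 and then 71 and 103. On the lower side, HAC1 had 429 and 483 reads at 25 °C and 370 and 228 at 37 °C (log2 -0.84, SE 0.28, adjusted p = 0.582, edgeR). RPL3 had 398 and 477 and then 728 and 322, and ZUO1, a ribosome-associated chaperone, 27 and 32 and then 63 and 24. Most of the drop of ZUO1 and TEF1 lay at 37 °C, where the prp43-1 library was the highest of the 4.

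**Figure D5:**
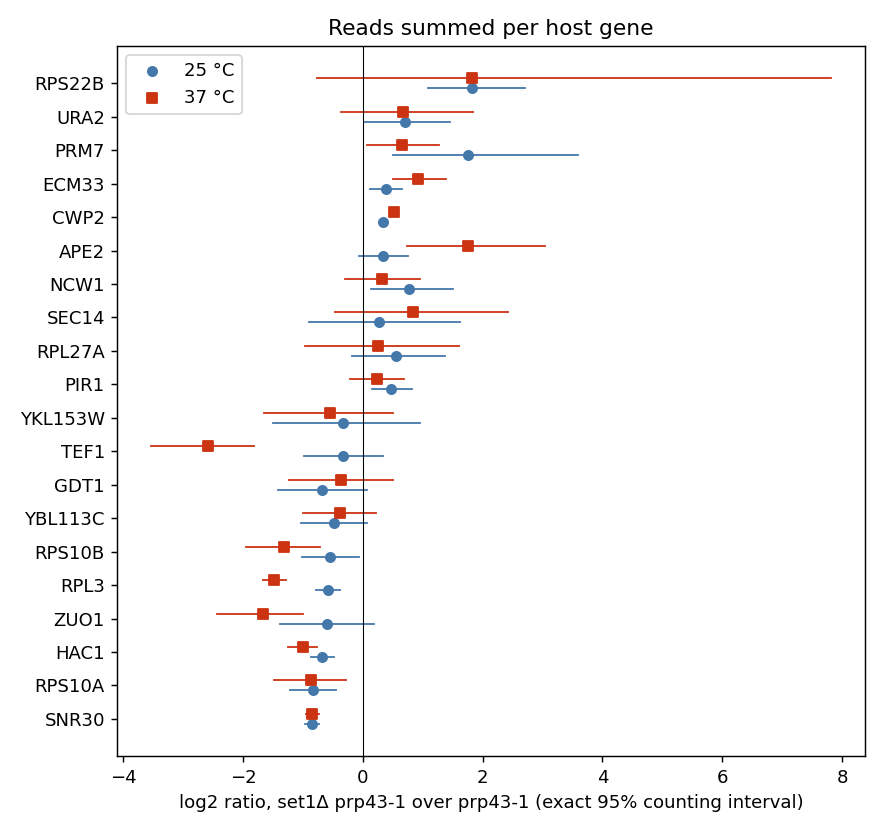
Log2 ratio of set1Δ prp43-1 over prp43-1 of the reads summed per host (x axis) for the 20 named hosts, with circles for 25 °C, squares for 37 °C and lines for the exact 95% counting interval. SNR30 and RPS10A have nearly equal ratios at both temperatures, while TEF1 and APE2 are farther from 0 at 37 °C.

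Some forms were seen in 1 strain only. Of the 3581 forms, 128 (3.57%) had reads in both set1Δ prp43-1 libraries and 0 in both prp43-1 libraries, in 80 hosts, with a median of 3 reads and 13 with GT-AG ends. The other way round there were 55 (1.54%), with a median of 2 reads and 4 with GT-AG ends. The set1Δ prp43-1 libraries also had more reads outside SCR1, 86845 against 49088 at 25 °C and 54267 against 37392 at 37 °C, and the part of that in these counts was not tested. SED1, which held 212 of the 3581 forms, gave 16 of the 128 and 2 of the 55. The most read of the first kind was a 90-nt SED1 gap, with 9 reads at 25 °C and 4 at 37 °C, and of the second kind a 66-nt SCR1 gap, with 1 and 14 reads.

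Whether the deletion acted differently when the helicase was mutant was tested as an interaction over 8 libraries, with wild type and set1Δ added. In this test 0 of 484 forms, 0.0%, passed in edgeR, 18 had an unadjusted p under 0.05, and DESeq2 gave 0 and 14. The largest differences among the called forms were those of the 39-nt U3 gap, with an interaction of -4.44 on the log2 scale (adjusted p = 0.241, edgeR), and of the 292-nt SCR1 gap, with -3.47 (adjusted p = 0.241, edgeR). The U3 gap had 9 and 3 reads in wild type and 13 and 43 in set1Δ, at 25 °C and 37 °C. The RPP2B gap had 87 and 153 in wild type and 170 and 369 in set1Δ, and its interaction was -2.35 (adjusted p = 0.414, edgeR). The CCW12 gap had 128 and 69 in wild type and 99 and 6 in set1Δ, with 3.13 (adjusted p = 0.438, edgeR). α-specific hosts had 61 and 16 reads in the set1Δ libraries with intact Prp43 and 0 in the other 6 of these 8, so mating type, or RNA of the other mating type, cannot be told apart from the deletion in those libraries.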

How the data were processed

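Ribosomal RNA-depleted RNA was sequenced from 4 libraries, set1Δ prp43-1 and prp43-1 at 25 °C and 37 °C. The authors deposited raw read counts per splice form, which is what the file header calls them, and 1 p-value per form with no library attached; what that deposited p-value tests is not given in the sources used here. The submitters' processing notes name STAR 2.4.0, CASAVA and sacCer3; the counting rule and annotation are not given in the sources used here. Among the 1112 forms whose deposited p-value is below 1, 729 have GT-AG ends at the listed bases in the R64 reference and at most 8 when shifted by 1 or 2 bases, so positions were read as listed. Hosts were matched for 6101 of 6195 forms; 0 forms coincide with an annotated intron, so usage relative to annotated splicing was not computed. The 32 positions listed on 2 rows each were kept, and 29 rows with no host (39 reads here) stayed in the form counts but out of the host sums.

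Counts were tested with edgeR 4.0.16 (quasi-likelihood, TMM factors, filterByExpr, R 4.3.3), model temperature + deletion, Benjamini-Hochberg at 0.05, and in the alternatives with DESeq2 1.42.0; the scripts were tested on simulated data. Ratios per temperature use a prior of 0.5 read and TMM-scaled totals. Shares have Wilson and ratios exact binomial 95% intervals. Column totals are not library depth, which is not known. Libraries are 1 per group, so p-values measure a spread between these 4 libraries that may be technical. That spread is the difference of the deletion's change between temperatures, shared across forms, and not a spread between replicates. Named forms had at least 20 reads in the 4 libraries (10 for GT-AG or low-p forms, 50 for hosts) and the same sign at both temperatures, ranked by the smaller ratio, with at most 2 forms per host; called forms, members of the lists and the most-read forms of named hosts were named too. Members, lists and tests were chosen with earlier results of these data known.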

Additional observations from a re-analysis of the deposited data

Results flagged for a closer look

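Distinct low-p forms at equal reads went down at 25 °C and up at 37 °C in set1Δ prp43-1, and the log2 ratios differed by 0.13. This difference was not tested. Under the same contrast, 4 of the called forms moved in opposite directions in both pairs with mutant Prp43 and in both pairs with intact Prp43, on column totals. The mean log2 ratio with mutant Prp43 minus that with intact Prp43 was -2.47 for the 12-nt RPP2B gap, -3.19 for the 292-nt SCR1 gap, 1.80 for the 140-nt SCR1 gap and -4.35 for the 39-nt SNR17A gap. The edgeR test of the interaction gave adjusted p-values of 0.414, 0.241, 0.779 and 0.241 for these forms, so none passed. The set1Δ libraries with intact Prp43 hold the α-specific reads described above, and the part of that in these differences was not tested.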

How the results depend on the processing

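The number of called forms, 11, fell to 7 (5 higher, 2 lower; 5 shared with the 11) on column totals, which moved the median log2 change of all forms from 0.04 to 0.22, and was 10 with a minimum of 20 reads (3 higher, 7 lower; 9 shared). It was 0 without SCR1 forms, with DESeq2, without a filter, with all 12 libraries, without the temperature term and, in an alternative chosen after seeing the data, with all 12 libraries without SCR1 forms, with 18, 15, 66, 22, 9 and 16 forms at an unadjusted p under 0.05. GT-AG or low-p forms alone gave 5. Leaving out each library in turn left no residual degree of freedom with the temperature term, so these fits dropped both, and the share of either choice in the change was not separated. They gave 0 to 6: 6 without prp43-1 at 25 °C and 0 without each of the other 3, where a lone library is assumed to vary like the other strain. Without prp43-1 at 37 °C and the term, the CCW12 form (-0.0023) and the 18-nt SCR1 form (-0.0892) reversed, against 0.91 and 0.77 without the term alone; in the other alternatives all 11 kept their direction where tested. The cause of these losses was not tested. Hosts gave 0 in every alternative run, and the interaction 0 on column totals, with DESeq2 and with 12 libraries.

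The low-p share (0.09) became 0.40 against noncoding hosts, 0.15 at a deposited p-value under 0.01 and -0.058 without the 10 most-read forms; by temperature it ranged from 0.05 to 0.13. The GT-AG share (0.03) became 0.34 and -0.16, and ranged from 0.02 to 0.04. Distinct low-p forms (-0.02) became 0.10 without the 10 most-read forms and ranged from -0.087 to 0.043; the value was -0.07 at 200 reads and -0.11 for GT-AG forms. The listed ratios of 48 named forms and 20 hosts kept their sign under each scaling where a value could be had. They also had the same sign at each temperature. Except for the called forms, the naming rules required that sign, so its agreement between temperatures is not a check. For hosts, the median log2 change moved from -0.06 to 0.14 on column totals and 0.19 without SCR1. Each group has 1 library, so replicate numbers pair nothing; the pairs are those of temperature, through the temperature term. Forms with few reads are limited by depth.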
